A study of Solanum lycopersicum with 95 samples.

Results

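After 96 h of added far-red (FR) light, the leaf transcriptome of tomato plants was compared with that of plants without it. The comparison rested on 8 RNA-seq libraries of 95 in the series, namely the 4 leaf libraries labelled FR and the 4 labelled NFR (no FR) at 96 h, called Leaf FR and No FR below, and members were taken by organ, light and time in the sample labels. Every plant was of the cultivar Foundation, a commercial hybrid sown in a greenhouse and moved to a climate chamber for the light treatment, and both groups received red and white light of 258 µmol per square metre and second. Leaf FR plants received a further 77 µmol of FR on the same scale on their vegetative organs from 63 days after sowing, while their fruits were screened from it, and No FR plants received none. Each sample was a leaflet of leaf 13, and each time point used other plants, so that no leaf was followed over time. Samples of 0, 24, 48 and 96 h were taken at the same time of day, and those of 6 and 12 h later in the photoperiod. The design gives 4 biological replicates a group, although the labels do not tie a library to a plant.

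Plants read the proportion of red to far-red light through phytochromes, photoreceptors that red light converts to the active form and far-red light back to the inactive one. When far-red rises, as under a canopy, growth-promoting transcription factors held in check by active phytochrome are released, and stems and petioles elongate at the cost of branching and defence. Auxin and gibberellins promote this elongation. In Arabidopsis, breakdown of cytokinin by cytokinin oxidases is part of the way in which shade restrains the growth of young leaves. The treatment of the study was not shade. By its account, added FR lowered the ratio of red to far-red but left it above that of sunlight.

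Library totals lay between 15458112 and 16883347 counts, with no gap between treatments, and 20515 to 21079 genes had at least 1 count. Across genes, log2 levels of the 8 libraries correlated with each other at r = 0.884 to 0.979 and with those of the fruit libraries of 96 h at 0.640 to 0.755, so that the libraries were closer to each other than to any fruit library. Markers of leaf cell types were not analysed here, because the gene identifiers could not be joined to an annotation. The first principal component held 40.4% of the variance and set Leaf FR replicate 2 apart from Leaf FR replicate 3 (scores -78.0 and 65.1) without separating the treatments. The second held 21.6% and placed all 4 Leaf FR libraries above 0 and all 4 No FR libraries below. Levels are given as CPM, counts relative to the library total after TMM scaling over all leaf libraries, and compare 1 gene between libraries, not genes with each other.

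DEGs (differentially expressed genes) at 96 h were nearly all upregulated. Of 17520 genes tested, 46 (0.263%) passed an adjusted p of 0.05 (edgeR quasi-likelihood test, Benjamini-Hochberg), 45 up (0.257%) and 1 down (0.00571%), and 11.4% of all genes had an unadjusted p under 0.05. In whole leaflets, fewer cells of a type and less RNA per cell cannot be told apart. The Leaf FR and No FR libraries of these 46 genes did not overlap, against 7% of all genes tested. Since the 46 were chosen by a test on these libraries, that separation is no further evidence. Log2FC was above 2 for 25 DEGs, between 1 and 2 for 18 and below 1 for 2 of the 45 upregulated genes, with a median of 2.59 (6.01-fold). All genes tested had a median of 0.02. The DESeq2 Wald test on the same counts gave 439 calls (2.51%), 307 up and 132 down, and held all 46 DEGs among them.

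The number of DEGs depended on single libraries. It was 29, 23, 27 and 17 without No FR replicate 1, 2, 3 and 4, and 18, 83, 45 and 63 without Leaf FR replicate 1, 2, 3 and 4. Without Leaf FR replicate 4, 51 were up and 12 down. Without Leaf FR replicate 2, 74 genes were up and 9 down, and they held 43 of the 46. All 46 kept their direction in each of the 8 fits, and 16 remained past the threshold in each. Those 16 included CKX4, Solyc06g060830.3, Solyc06g062460.3, Solyc06g035530.3 and Solyc05g008250.2, described below with the others by identifier. The deposited tables hold identifiers without names, and of the 48 identifiers that the study pairs with a name and that were used here, 1 was a DEG. The other 45 DEGs are therefore given by identifier, with no role. Whether the study names any of them elsewhere was not determined.

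**Figure D1:**
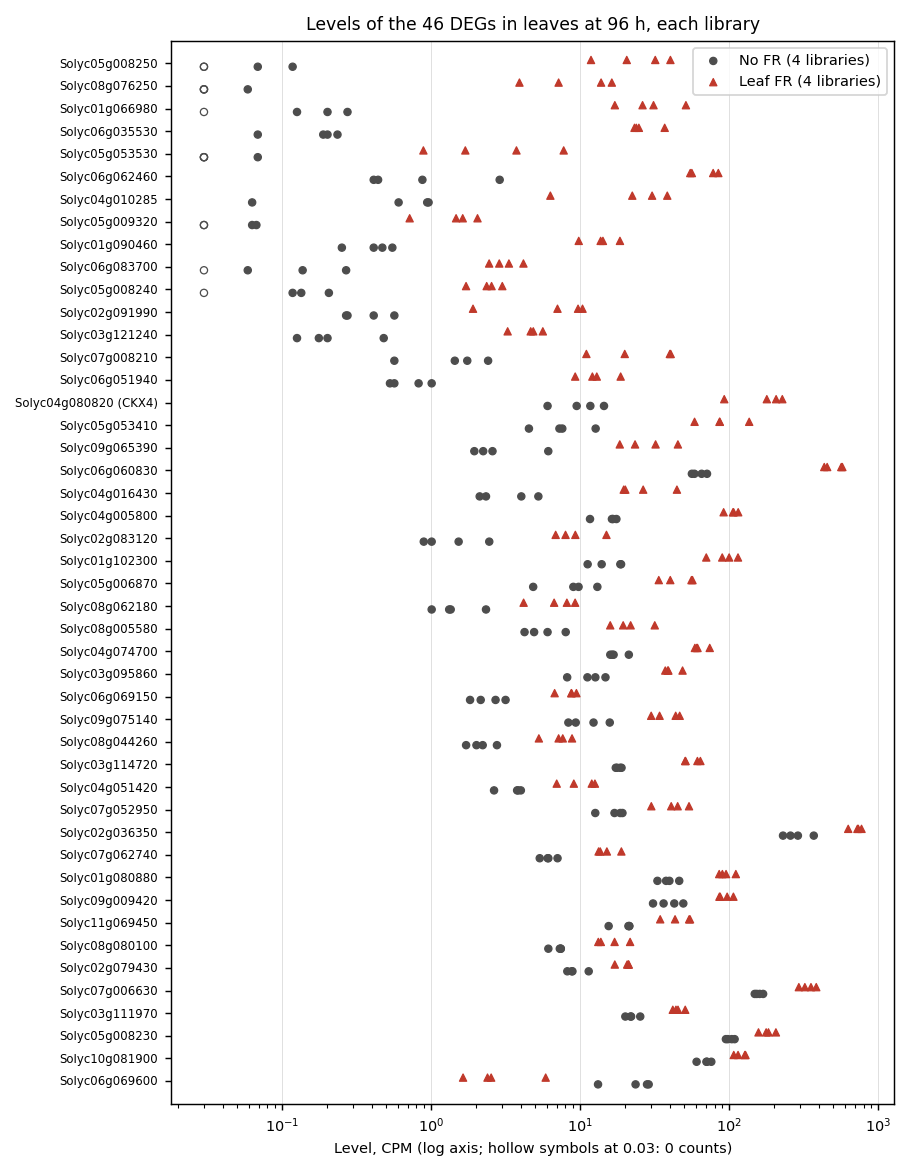
Level in CPM (log axis) of the 46 DEGs, 1 gene a row in order of Log2FC, in each of the 4 No FR (circles) and 4 Leaf FR libraries (triangles) at 96 h; hollow symbols are libraries with 0 counts. In every row the triangles and the circles are apart, and only the bottom row, Solyc06g069600.3, has the triangles on the left.

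**Figure D2:**
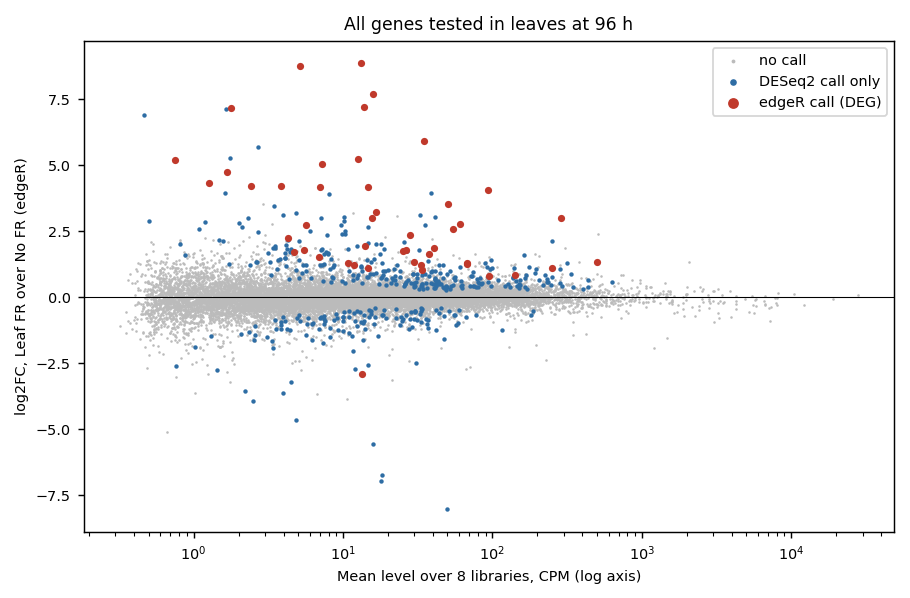
Log2FC of Leaf FR over No FR (edgeR) against the mean level over the 8 libraries (CPM, log axis) for the 17520 genes tested at 96 h, with the 46 DEGs in red and further DESeq2 calls in blue. The red points are above 0 but for 1, whereas the blue points lie on both sides.

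CKX4 (Solyc04g080820.2), a cytokinin oxidase that breaks down cytokinins, was the DEG among the 48 named identifiers used here. It stood at 9.51, 14.5, 6.06 and 11.7 CPM in No FR replicates 1 to 4 and at 207, 228, 93.0 and 179.6 CPM in Leaf FR replicates 1 to 4. The lowest Leaf FR library, replicate 3, was still above the highest No FR library, and the means of 10.5 ± 3.57 and 177 ± 59.4 CPM (SD, n = 4) differed 16.9-fold (Log2FC 4.08, SE 0.36, adjusted p 0.00257). It stayed past the threshold when any 1 library was left out. At 0 h, before FR, the plants assigned to Leaf FR already ranged from 6.67 to 44.3 CPM against 4.69 to 9.05 in No FR (Log2FC 1.45, adjusted p 0.999), which overlapped. Log2FC was 1.93, 2.08, 3.20 and 3.36 at 6, 12, 24 and 48 h, with adjusted p between 0.143 and 1.00, and its size at 96 h was the largest of the 6 time points. The difference of 2.63 ± 0.70 (SE) between the Log2FC of 96 h and that of 0 h did not pass the threshold (adjusted p 0.283). In the DESeq2 test of that difference the adjusted p was 0.0256.

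A first group of DEGs was close to silent without FR. Of the 45 upregulated genes, 13 had a No FR mean under 1 CPM, and 4 of these had 1 to 3 counts over all 4 No FR libraries together. Solyc05g008250.2 had 3 counts over the No FR libraries and 1667 over the Leaf FR libraries, where it reached 40.5, 32.0, 11.9 and 20.6 CPM in replicates 1 to 4. The ratio of its summed levels was 540.3 (exact 95% interval 185 to 2623, counting error only). Solyc08g076250.3 had 1 count without FR, in replicate 4, and 16.4, 13.9, 7.19 and 3.93 CPM with FR, a ratio of 644 (exact 95% interval 115 to 25463, counting error only). Without No FR replicate 4 the adjusted p of Solyc08g076250.3 was 0.0915. Both were found in every Leaf FR library and nearly absent from No FR, and replicates 3 and 4 held the lower Leaf FR values. Like Solyc01g066980.3 and Solyc06g035530.3 below, neither reached 10 counts in a No FR library. These genes entered the test through Leaf FR alone. None of the 13 reached 10 counts in 3 No FR libraries, as entry without Leaf FR would need. The pattern of all 13 therefore rests in part on how they were chosen. Solyc01g066980.3 stood at 0.276, 0.202, 0.126 and 0 CPM in No FR and 51.4, 31.2, 26.3 and 17.2 CPM in Leaf FR (Log2FC 7.69, SE 0.58, adjusted p 8.46e-04). Solyc06g035530.3 had the lowest adjusted p of all genes, with 0.0689, 0.202, 0.190 and 0.236 CPM in No FR and 37.1, 24.9, 23.2 and 23.9 CPM in Leaf FR (Log2FC 7.22, SE 0.32, adjusted p 6.59e-05). Its Leaf FR replicates 2 to 4 were within 23.2 to 24.9 CPM.

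A second group was well expressed in both lights. Solyc02g036350.3, the DEG with the highest mean level, stood at 371, 231, 290.1 and 259 CPM in No FR and 728, 776, 738 and 631 CPM in Leaf FR (Log2FC 1.33, SE 0.17, adjusted p 0.0220), a 2.497-fold difference of means. Its adjusted p rose to 0.0920, 0.0975 and 0.134 without No FR replicate 2, 3 and 4 and to 0.0828 without Leaf FR replicate 1. Solyc06g060830.3 had the highest mean level of the 25 DEGs with a Log2FC above 2, at 71.2, 56.4, 58.7 and 65.6 CPM in No FR and 567, 577, 436 and 456 CPM in Leaf FR (Log2FC 3.02, SE 0.16, adjusted p 1.43e-04). Its means of 63.0 ± 6.76 and 509 ± 73.3 CPM (SD, n = 4) were 8.08-fold apart, and the call held without any 1 library. Solyc07g006630.4 ranged from 149 to 169.5 CPM in No FR and from 294 to 385 in Leaf FR (Log2FC 1.11), and Solyc10g081900.3 from 60.6 to 76.1 and from 108 to 129 (Log2FC 0.79, the smallest among the DEGs). Neither passed when No FR replicate 1, 2, 3 or 4 or Leaf FR replicate 1 was left out (adjusted p 0.0641 to 0.0912 and 0.0932 to 0.185), nor did Solyc10g081900.3 without Leaf FR replicate 4 (0.0674). In all, 7 of the upregulated genes reached a Leaf FR mean of 100 CPM or more.

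The DEGs lay on 11 of the 12 chromosomes that the identifiers name, with 1 to 7 on each. Between 1131 and 2269 genes were tested on each of the 12, and whether the DEGs were spread unevenly was not tested. On chromosome 5, 3 consecutive identifiers were all DEGs but of unlike level and size of change. Solyc05g008230.3 was at 95.4 to 109 CPM in No FR and 158 to 207 CPM in Leaf FR (Log2FC 0.84), Solyc05g008240.2 at 0 to 0.207 and 1.72 to 3.01 CPM (Log2FC 4.33), and Solyc05g008250.2 is the gene described above with 3 counts in No FR. Neither Solyc05g008240.2 nor Solyc05g008250.2 reached 10 counts in a No FR library of 96 h, so both were tested through Leaf FR alone. The 3 genes also differed over time. Solyc05g008230.3 and Solyc05g008240.2 were DEGs at 6 h (Log2FC 1.52 and 5.91, adjusted p 0.0493 and 0.0154), when Solyc05g008250.2 had 8 counts over the 4 Leaf FR libraries. At 48 h Solyc05g008250.2 was at 1.498 to 6.75 CPM in Leaf FR, below its lowest Leaf FR library of 96 h. Without No FR replicate 2 or 4 or Leaf FR replicate 1, neither Solyc05g008230.3 nor Solyc05g008240.2 passed at 96 h (adjusted p 0.117, 0.154 and 0.100, and 0.0980, 0.120 and 0.0774). Solyc05g008230.3 did not pass either without No FR replicate 1 or 3 or Leaf FR replicate 3 (adjusted p 0.0883, 0.109 and 0.0562). Whether these genes share sequence, and thus reads, was not tested.

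Solyc06g069600.3 was the downregulated DEG. It stood at 13.2, 28.2, 23.6 and 28.9 CPM in No FR and at 1.64, 2.54, 2.40 and 5.89 CPM in Leaf FR (Log2FC -2.91, SE 0.42, adjusted p 0.0344). Every Leaf FR library was below every No FR library, and the No FR mean was 7.54-fold the Leaf FR mean. At 0 h both groups were alike in range, at 12.7 to 44.4 and 20.9 to 41.9 CPM (Log2FC -0.02), and Leaf FR was lower at each later time point, with Log2FC -1.26 at 6 h (adjusted p 0.0275) and -1.55, -2.06 and -1.74 at 12, 24 and 48 h, none of which passed the threshold. All 8 fruit libraries of 96 h had 0 counts of it. The call at 96 h was near the threshold, since the adjusted p was 0.120, 0.104 and 0.154 without No FR replicate 2, 3 and 4, and 0.102, 0.0526 and 0.0853 without Leaf FR replicate 1, 2 and 3.

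DESeq2 falls were ranked among calls with a mean of at least 1 CPM and no overlap between groups. Of the 8 with the most negative Log2FC in that ranking, 7 did not pass the edgeR threshold. In the leading ones the No FR libraries differed widely. Solyc03g098790.3, the first in that ranking, stood at 6.41, 221, 12.6 and 153 CPM in No FR and at 0.411, 0.789, 0.0615 and 0.196 CPM in Leaf FR (Log2FC -8.02, SE 1.42, adjusted p 0.0785, DESeq2 adjusted p 1.33e-08). The No FR values fell into a high pair, replicates 2 and 4, and a low pair, while all Leaf FR libraries were under 1 CPM. Solyc09g084480.3 followed the same replicates, with 3.38, 64.6, 4.42 and 69.3 CPM in No FR and 0.205, 0.564, 0.246 and 0.0655 in Leaf FR (Log2FC -6.95, SE 1.29, adjusted p 0.0899). The order changed over time. At 0 h Solyc03g098790.3 was higher in the plants assigned to Leaf FR, at 4.97 to 657 CPM against 0.276 to 14.96 (Log2FC 4.66, SE 1.58), and at 12 h it ranged from 0.131 to 648 CPM in No FR and from 1.16 to 1005 CPM in the 3 Leaf FR libraries. For the other 5, Log2FC ranged from -6.71 to -2.75 and the adjusted p of edgeR from 0.0993 to 0.242. The smallest of these differences was that of Solyc10g086250.2, whose No FR libraries lay between 1.39 and 3.44 CPM.

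**Figure D3:**
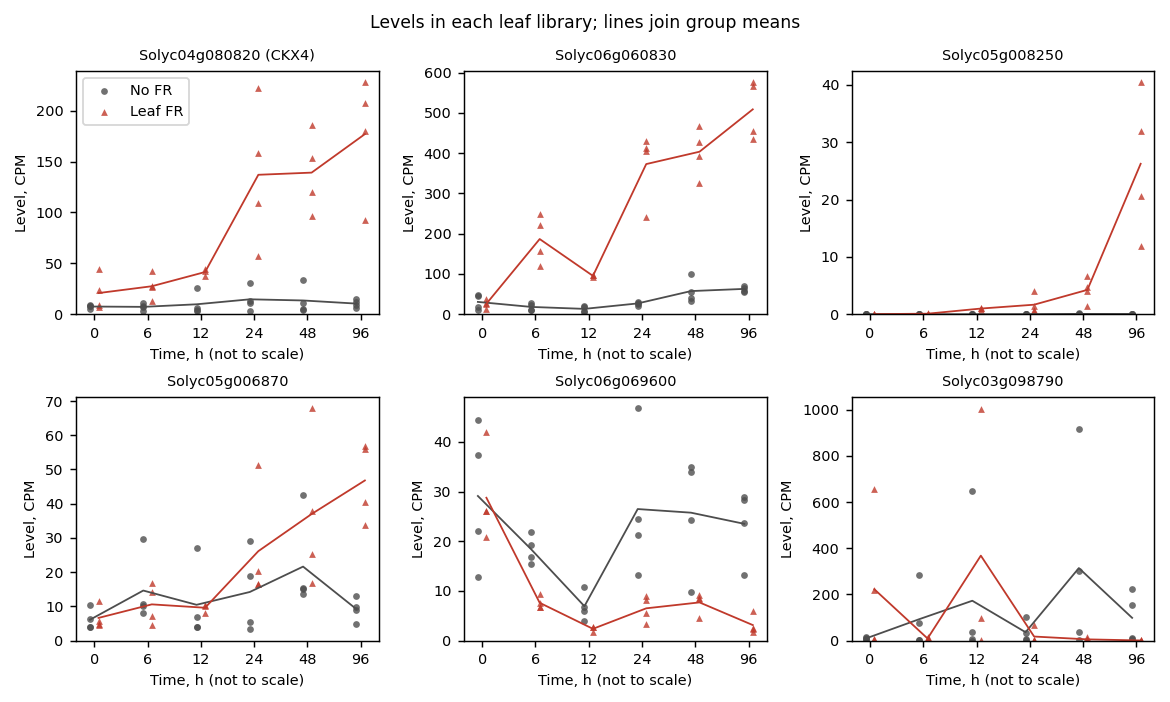
Level in CPM of 6 genes in each leaf library (circles No FR, triangles Leaf FR) at 0, 6, 12, 24, 48 and 96 h, with lines through the group means; the time axis is not to scale. CKX4, Solyc06g060830.3 and Solyc05g006870.3 have all 4 Leaf FR points above all No FR points at 96 h, whereas Solyc03g098790.3 has single high points in either group at several times.

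Many of the 46 genes passed the threshold at earlier time points as well, in other plants and libraries. At 6, 12, 24 and 48 h, 18 of 44, 0 of 42, 19 of 45 and 11 of 44 genes tested were DEGs, against 0.365%, 0.00548%, 0.188% and 0.0795% of all genes. An unadjusted p under 0.05 was reached by 39 of 44, 27 of 42, 40 of 45 and 41 of 44, against 8.91%, 1.26%, 6.87% and 7.53% of all genes, and DESeq2 called 37, 15, 38 and 29, against 2.82%, 0.115%, 1.51% and 1.44%. The direction of 96 h, up for all but Solyc06g069600.3, was shown by 43 of 44, 36 of 42, 45 of 45 and 44 of 44, whereas 50.9%, 44.3%, 46.4% and 52.3% of all genes were above 0. Thus 12 h had the fewest calls, both among these genes and over all genes, and its Leaf FR group had 3 libraries. Genes near silent without FR could be tested at these times only where Leaf FR was high, so their direction was set beforehand. The shares above rest in part on that filter.

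Median Log2FC of these genes was 1.69, 0.99, 2.30 and 1.54 at 6, 12, 24 and 48 h, set beside 2.47 at 96 h, where they were chosen, and medians of -0.04 to 0.02 over all genes. Before FR, at 0 h, none of 34 tested was a DEG by edgeR or DESeq2 (0% and 0.121% of all genes were), 3 had an unadjusted p under 0.05 (against 3.17%), and the median Log2FC was -0.01. The other 12 were too low at 0 h to be tested, against 1 to 4 genes at 6 to 48 h. The medians therefore cover unlike sets of genes. Over the 4 earlier times under FR, 6 genes were DEGs at 3 of them, 9 at 2, 12 at 1 and 19 at none. Solyc06g062460.3 was among the 6 and had a Leaf FR mean of 159 ± 59.3 CPM at 6 h and 68.6 ± 15.2 CPM at 96 h (SD, n = 4), against 3.72 ± 3.24 and 1.16 ± 1.18 in No FR. The others were Solyc06g035530.3, Solyc01g090460.3, Solyc05g053410.4, Solyc06g060830.3 and Solyc02g083120.3.

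**Figure D4:**
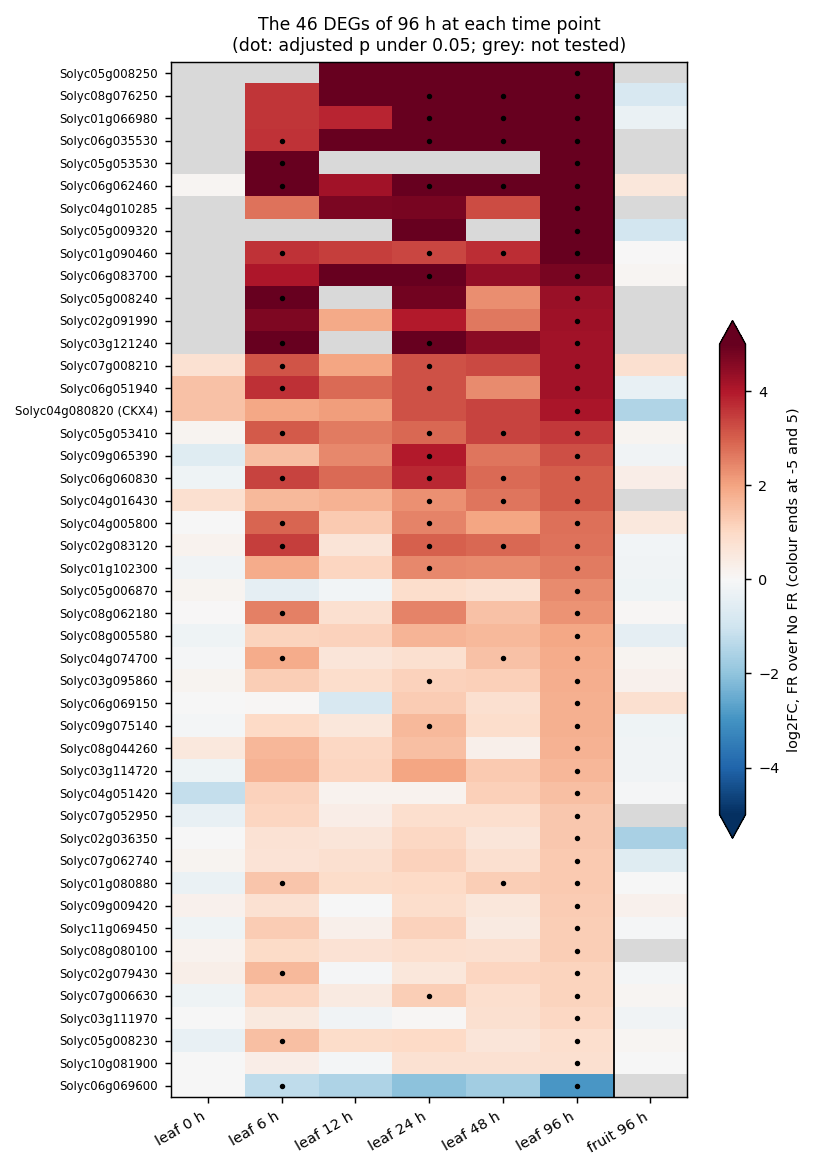
Log2FC of Leaf FR over No FR (colour) of the 46 DEGs of 96 h in leaves at 6 time points and in fruits at 96 h, rows in order of Log2FC at 96 h; dots mark an adjusted p under 0.05 and grey cells were not tested. Dots fill the 96 h column, by which the genes were chosen, thin out over 19, 18 and 11 genes at 24, 6 and 48 h, and are missing at 0 h, at 12 h and in fruits.

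Solyc05g006870.3 departed from this course, since it alone of the 46 had no unadjusted p under 0.05 at 6, 12, 24 or 48 h. It was chosen after its values were seen. It stood at 13.1, 4.86, 9.79 and 9.03 CPM in No FR and 56.9, 56.0, 33.8 and 40.4 CPM in Leaf FR at 96 h (Log2FC 2.36, SE 0.29, adjusted p 0.0203), and its Log2FC was -0.46, -0.13, 0.86 and 0.78 at 6, 12, 24 and 48 h. Its adjusted p at 96 h was 0.0765 and 0.111 without No FR replicate 3 and 4 and 0.0705 without Leaf FR replicate 1. The difference between 96 h and 6 h, 2.83 ± 0.64 (SE), had an adjusted p of 0.742 in edgeR and 0.0170 in DESeq2. Over all genes, 0% differed in Log2FC between 96 h and 6 h past the threshold in edgeR (1150 of 18634 genes, 6.17%, had an unadjusted p under 0.05), and 11 genes (0.059%) did in DESeq2. Between 96 h and 24 h or 48 h, at the same time of day, neither tool called a gene, with 673 and 324 genes (3.69% and 1.79%) under an unadjusted p of 0.05 in edgeR.

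The difference between treatments at 96 h was also set against that of 0 h, which the plants had before FR. It was larger at 96 h for 12 genes (0.0661% of 18159), all of them among the 46 DEGs, led by Solyc01g090460.3 at 6.11 ± 0.59 (SE, adjusted p 5.02e-04). That gene stood at 0.551, 0.472, 0.253 and 0.413 CPM in No FR and 18.6, 14.3, 13.8 and 9.82 in Leaf FR at 96 h, and at 0.272 to 1.20 and 0.210 to 0.488 CPM at 0 h. It reached 10 counts in no No FR library of 96 h, so its DEG call there was possible through Leaf FR alone. DESeq2 called 136 genes (0.749%). Since the 46 genes were chosen on the libraries of 96 h, their differences from 0 h rest in part on the values that chose them. The count of 12 was 2 and 1 without No FR replicates 1 and 3 of 0 h, 2, 4, 1 and 2 without Leaf FR replicates 1, 2, 3 and 4 of 0 h, 5, 1, 4 and 1 without No FR replicates 1, 2, 3 and 4 of 96 h, and 1, 6 and 5 without Leaf FR replicates 1, 2 and 3 of 96 h.

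Within each light, the leaves of 96 h were compared with those of 0 h. In Leaf FR, 1667 of 17557 genes (9.49%) differed, 897 up (5.11%) and 770 down (4.39%), and 43 of the 46 DEGs were among them. The 46 were chosen on the same libraries of 96 h. Their share of these calls and their medians below were therefore largely set by that choice. In No FR, edgeR called none of 17492 genes, although 2985 (17.1%) had an unadjusted p under 0.05, and DESeq2 called 631 (3.61%) against 3322 (18.9%) in Leaf FR. Counts in 1 light do not test the difference between lights, which the comparison giving 12 genes did. The median Log2FC of the 46 genes from 0 to 96 h was 2.55 in Leaf FR and 0.09 over the 35 tested in No FR, with 8 of the latter at an unadjusted p under 0.05. Solyc06g060830.3 was one of these 8, at 30.6 ± 18.4 CPM at 0 h and 63.0 ± 6.76 at 96 h in No FR (SD, n = 4), while it went from 26.1 ± 10.4 to 509 ± 73.3 CPM in Leaf FR. The Leaf FR count fell to 390, 426, 414 and 862 without replicate 1, 2, 3 and 4 of 0 h and to 645 and 739 without replicates 1 and 3 of 96 h.

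Genes of hormone metabolism and signalling to which the study gives a name and an identifier were then followed. The study chose them on its fruit libraries, so they are no sample of the leaf pathways. Of the 3 cytokinin genes, CKX4 rose as described, while the cytokinin hydroxylase SlCYP735A1 had 6 and 3 counts over the 4 No FR and 4 Leaf FR libraries and the second cytokinin oxidase, CKX (Solyc08g061920.3), had 0 counts in all 8. Neither could be tested. None of the 4 tested of the 6 named genes of auxin synthesis and transport passed the threshold (0.263% of all genes did, so that 0 of 4 says little; median Log2FC 0.32, all genes 0.02). SlPIN4 (Solyc05g008060.4), of the PIN family of auxin transporters, came closest at 105, 84.998, 77.4 and 86.7 CPM in No FR and 208, 149, 228 and 173 CPM in Leaf FR (Log2FC 1.11, SE 0.17, adjusted p 0.0511). Its groups did not overlap, DESeq2 called it (adjusted p 1.36e-06), and edgeR did so without Leaf FR replicate 2 (adjusted p 0.0178). At 6 h SlPIN4 was a DEG with a Log2FC of 2.16 ± 0.27 (SE, adjusted p 0.0226), and the change from 6 to 96 h, -1.03 ± 0.33, did not pass (adjusted p 0.763).

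The tested genes of auxin response (3), gibberellin, cell wall and flowering (1 each) were not DEGs, which at 0.263% over all genes says little. Among the 3 auxin response genes, Log2FC was 1.28 for SlIAA19, a repressor of the Aux/IAA family, 0.46 for SlARF10A and -0.20 for SlARF2, both auxin response factors, with adjusted p of 0.363 to 0.702. SlIAA19 stood at 2.34, 5.46, 2.78 and 2.60 CPM in No FR and 3.29, 0.677, 19.5 and 8.18 CPM in Leaf FR, so that its highest and its lowest value were both in Leaf FR. GA20OX1, a gibberellin 20-oxidase, ranged from 58.3 to 101 CPM in No FR and from 35.5 to 166 in Leaf FR (Log2FC 0.36, adjusted p 0.795). The expansin EXPA5, of a family that loosens cell walls, was at 50.2, 82.2, 126 and 87.6 CPM in No FR and 96.2, 40.7, 309 and 74.8 in Leaf FR (Log2FC 0.60, adjusted p 0.748). Leaf FR replicate 3 was the highest of its group for SlIAA19, GA20OX1 and EXPA5, and without it the Log2FC of EXPA5 was -0.28. It was the highest as well for TMF, a regulator of flowering (Log2FC 0.92, adjusted p 0.792), at 5.10 CPM against 0.113 to 0.393 in the other 3 Leaf FR libraries.

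None of the 6 tested genes of sucrose and starch metabolism, 11 of glycolysis and 8 of respiration was a DEG, where 0.263% of all genes were. Their median Log2FC was 0.18, 0.12 and 0.22, against 0.02 over all genes tested. The sucrose synthases SUS1 and SUS3 had Log2FC of 0.40 ± 0.27 and 0.58 ± 0.36 (SE), and SlGBSS1, the starch synthase bound to starch granules, had -0.21 ± 0.21. The subunits AGPase L1 and AGPase S1 of ADP-glucose pyrophosphorylase, which makes the substrate of starch synthesis, had -0.07 ± 0.21 and 0.21 ± 0.25. All 8 respiration genes had a Log2FC above 0, as had 52.3% of all genes, and the fumarase SlFUM1 of the tricarboxylic acid cycle had the largest, with 16.9 to 20.7 CPM in No FR and 23.8 to 28.0 in Leaf FR (Log2FC 0.51, SE 0.11, adjusted p 0.146; DESeq2 adjusted p 0.00459). The glycolysis list follows the pathway drawn by the study for fruits, and the role of its members in leaves was not tested. Leaf FR replicate 2 was the lowest of the 8 libraries for 2 of them, the aldolase SlFBA2 and the GAPDH of Solyc04g009030.3. It stood at 1489.9 and 2667 CPM, against 2545 and 4129 in Leaf FR replicate 3, the next lowest. Of 5 further genes named by the study, 4 were tested, with Log2FC of -0.05 to 1.48 and adjusted p from 0.461 up.

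**Figure D5:**
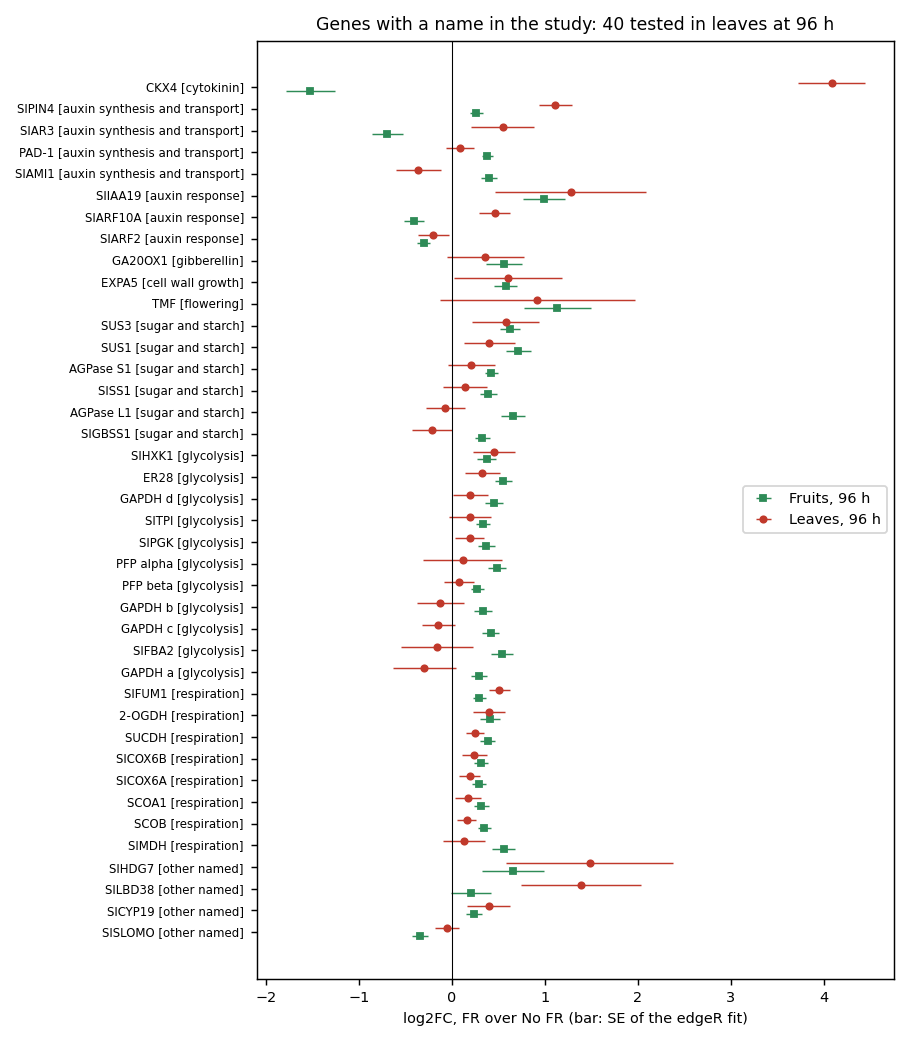
Log2FC with SE (edgeR) of the 40 genes named by the study that were tested in leaves at 96 h (circles) and, beside it, in fruits at 96 h (squares), grouped by role. In leaves CKX4 stands far to the right at 4.08 while the other genes lie between -0.36 and 1.48, and CKX4 is on the opposite side of 0 in fruits.

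Fruits of the same treatments, which were not lit by FR, gave a comparison for the 46 genes at 96 h. None of the 35 tested there passed the threshold in edgeR (0.0434% of all fruit genes did), 7 had an unadjusted p under 0.05 (against 18.6%), and DESeq2 called 4 (against 5.81%). The median Log2FC was -0.07, and 14 of 35 had the sign of the leaves, where 46.5% of all fruit genes were above 0. Tested directly, Log2FC differed between leaf and fruit for 32 of the 46 genes, against 0.511% of 19748 genes (0.36% with the higher value in leaves), and the leaf value was the higher in all 32. The leaf side of this test used the libraries on which the genes were chosen. It covered all 46 genes, and the 11 too low to be tested in fruits entered it with the help of leaf libraries. For those 11 it cannot tell an unlike response from low expression in fruits. CKX4 was at 8.69 to 13.2 CPM in No FR fruits and 2.54 to 6.45 CPM in fruits of Leaf FR plants (Log2FC -1.52, SE 0.27, adjusted p 0.0726 in edgeR and 2.09e-05 in DESeq2). The study picked CKX4 on these fruit libraries, so its fruit p-values are not independent evidence. Its Log2FC in leaves exceeded that in fruits by 5.59 ± 0.47 (SE, adjusted p 1.90e-05). Solyc02g036350.3, at 288 ± 60.6 CPM in No FR leaves, was at 6.39 ± 4.50 CPM in No FR fruits (SD, n = 4), each on the scale of its own organ, and its Log2FC in fruits was -1.63 (adjusted p 0.132).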

How the data were processed

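RNA of leaves and fruits was sequenced by the authors, who filtered reads with SOAPnuke, aligned them to the ITAG4.0 reference with Bowtie2 and estimated reads per gene with RSEM. The deposited table holds these expected counts as whole numbers for 34075 gene identifiers. A second deposited table of counts divided by size factors, a score rounded by the authors, served only to read those factors.

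Leaf FR was tested against No FR at 96 h with edgeR 4.0.16 (quasi-likelihood, TMM, genes reaching 10 counts in 3 or more libraries of the comparison; limma 3.58.1, R 4.3.3) and Benjamini-Hochberg adjustment over all genes. Differences between times or organs were interactions. The SE is Log2FC divided by the square root of F. Alternatives were DESeq2 1.42.0 and other scalings, filters and sample sets. The code was tested on simulated data. Among the 8 leaf libraries of 96 h, no pair of the same treatment agreed within sampling noise. Other pairs were not compared. P-values measure the spread between libraries labelled as separate biological samples.

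Genes named are the 12 largest rises and the falls among non-overlapping DEGs, the 6 most abundant DEGs, the 8 largest falls among DESeq2 calls (mean of 1 CPM or more, no overlap), and list members; others were chosen after their values were seen. None of 34075 identifiers matched RefSeq, so lists (cytokinin, auxin response, auxin synthesis and transport, gibberellin, cell wall, flowering, sucrose and starch, glycolysis, respiration, others) hold 48 identifiers the study names. Members and lists were chosen with earlier results of these data known.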

Additional observations from a re-analysis of the deposited data

Results flagged for a closer look

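In 17 of 138 sets of 4 libraries (69 named genes, both treatments), 1 library lay far from the other 3 by Dixon's test, which chance does for about 1 group in 20. For Solyc08g076250.3 and Solyc05g053530.1 in No FR, where 1 library had a single count and the others 0, the test is met by construction and says nothing of that library. The high library was that of Solyc06g035530.3 in replicate 1 (37.1 CPM), Solyc04g074700.4 in replicate 1 (74.3 CPM), Solyc03g095860.3 in replicate 1 (48.8 CPM), Solyc03g098795.1 in replicate 2 (2.20 CPM) and TMF in replicate 3 (5.10 CPM) in Leaf FR, and that of Solyc08g076250.3 in replicate 4 (0.0590 CPM), Solyc05g053530.1 in replicate 1 (0.0689 CPM), Solyc09g065390.1 in replicate 1 (6.13 CPM), Solyc04g074700.4 in replicate 3 (21.3 CPM), SlIAA19 in replicate 2 (5.46 CPM), SlARF10A in replicate 1 (16.3 CPM) and SlAR3 in replicate 1 (82.6 CPM) in No FR. The low library was that of Solyc02g079430.4 in replicate 2 (17.1 CPM) in Leaf FR, and that of Solyc04g051420.3 in replicate 3 (2.65 CPM), Solyc11g069450.1 in replicate 4 (15.6 CPM), Solyc08g080100.4 in replicate 2 (6.14 CPM) and SlSS1 in replicate 1 (15.9 CPM) in No FR. All but Solyc03g098795.1 and the genes with a name in the study were DEGs.

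Log2FC at 96 h exceeded Log2FC at 0 h, by a test of the difference, in 12 genes, by 6.11 for Solyc01g090460.3, 3.38 for Solyc05g053410.4, 3.82 for Solyc09g065390.1, 1.93 for Solyc04g074700.4, 5.83 for Solyc06g062460.3, 1.64 for Solyc01g080880.4, 2.75 for Solyc01g102300.3, 2.69 for Solyc04g051420.3, 10.27 for Solyc08g076250.3, 1.68 for Solyc03g095860.3, 3.25 for Solyc06g060830.3 and 6.44 for Solyc06g035530.3. Genes with a few counts at 0 h have differences that depend on the prior count, above all Solyc08g076250.3, Solyc06g035530.3 and Solyc01g090460.3.

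Log2FC in leaves exceeded that in fruits at 96 h among the most changed and most abundant DEGs, by 9.63 for Solyc08g076250.3, 8.01 for Solyc01g066980.3, 7.24 for Solyc06g035530.3, 5.34 for Solyc06g062460.3, 6.18 for Solyc05g009320.4, 5.02 for Solyc01g090460.3, 4.63 for Solyc06g083700.4, 5.59 for CKX4, 2.69 for Solyc06g060830.3, 2.94 for Solyc02g036350.3, 1.01 for Solyc07g006630.4, 0.72 for Solyc05g008230.3 and 0.80 for Solyc10g081900.3.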

How the results depend on the processing

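DESeq2 gave more calls in these comparisons, from 46 to 439 DEGs (69.9% of them up, against 97.8%), from 44 to 211 with a Log2FC above 1 or below -1, from 0 to 11 and from 12 to 136 differences of 96 h from 6 h and 0 h, from 1667 to 3322 changes since 0 h in Leaf FR and from 0 to 631 in No FR. One edgeR fit over all leaf time points gave 127 DEGs (108 up, 19 down, 36 of the 46 among them), 101 of the larger size. The size factors of DESeq2 or the authors, no filter and robust estimates gave 46 to 51 DEGs. All 46 kept their direction in every alternative.

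The replicate numbers are shared between groups. Deviations of the same number correlated at -0.30, -0.44, 0.44 and -0.13, and those of unlike numbers at -0.41 to 0.51. So few values cannot settle whether the numbers pair the libraries. With the replicate block there were 17 DEGs, 16 of the 46 among them, 17 of the larger size, 1 difference from 0 h and 776 changes since 0 h in Leaf FR, and the Log2FC of TMF, a gene that was not called, was -0.26.

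Leaving out 1 library gave 17 to 83 DEGs, 17 to 75 of the larger size, 0 differences from 6 h, 1 to 14 from 0 h, 390 to 1856 changes since 0 h in Leaf FR and 0 to 1 in No FR. Without a library, the Log2FC of 4 genes that were not called changed sign, TMF (Solyc09g090180.1, range -1.58 to 1.33), EXPA5 (Solyc02g088100.3, range -0.28 to 0.92), AGPase L1 (Solyc01g109790.3, range -0.29 to 0.028) and SlSS1 (Solyc03g083090.4, range -0.026 to 0.26). SlPIN4 made the calls among auxin synthesis and transport genes 1 in place of 0 in DESeq2, without the filter, with the authors' size factors, in the fit over all times and without Leaf FR replicate 2, and SlFUM1 those among respiration genes 1 in DESeq2.

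With 4 libraries a group and the spread between them, small changes of low or variable genes were not detectable. Large differences of variable genes could be missed too, as for Solyc03g098790.3 (Log2FC -8.02, adjusted p 0.0785 in edgeR). A gene that was not called is thus not shown to be unchanged.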
